A study of Homo sapiens with 8 samples.

Results

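Integrins and laminins are the proteins through which a fibroblast holds on to its matrix. The chains described here are the protein-coding genes of the deposited table whose symbols name an integrin alpha chain, an integrin beta chain or a laminin chain. There are 38 of them among 58825 genes, made up of 18 integrin alpha, 8 integrin beta and 12 laminin chains. RNA was measured in 8 libraries of BJ cells, an established human skin fibroblast line, in a derivative labelled BJ-HRAS. The 4 groups were SNORA13 knockout (KO) clones 66 and 69 with (Z)-4-hydroxytamoxifen (4-OHT), the same KO clones without it, wild-type (WT) clones 15 and 54 with 4-OHT, and the same WT clones without it. Treated cells had 100 nM 4-OHT for 7 days, and every clone carries the HRAS derivative's background. As background to the labels, 4-OHT in cells of this kind switches on a receptor-HRAS fusion, and SNORA13 belongs to the H/ACA small nucleolar RNAs, guides for the conversion of uridine to pseudouridine in ribosomal and other RNA.

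An integrin is a pair of an alpha and a beta chain that spans the membrane, binds matrix outside the cell and is coupled to actin through talin and other adaptors inside it. The alpha chain largely sets the ligand: collagens, laminins, or proteins with an Arg-Gly-Asp (RGD) motif such as fibronectin and vitronectin. A laminin is a trimer of an alpha, a beta and a gamma chain and is a main building block of basement membranes. In skin, laminins that contain LAMA3 and the integrin of ITGA6 and ITGB4 anchor keratinocytes at hemidesmosomes, while dermal fibroblasts are known for collagen and fibronectin receptors that contain ITGB1.

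SNORA13 itself had 0 reads in the 4 KO libraries, against 5 and 7 reads in WT clones with 4-OHT and 6 and 4 reads in WT clones without it. A count of 0 allows up to 3 reads, and this limit covers counting error only. Library totals were 22.1 to 24.9 M reads, and 1 read on 1 kb of transcript made up 0.0401 to 0.0453 RPKM (reads per kilobase of a gene, relative to the depth of the library). Fibroblast markers were high in every library, with a summed level of 3157 to 3483 RPKM in KO with 4-OHT, 4660 to 4798 in KO without, 3170 to 3578 in WT with and 5064 to 5324 in WT without, and all 11 of them were measured above 0. Single markers went both ways. DCN stood at 1.04 and 1.11 RPKM in KO with 4-OHT, against 67.7 and 79 RPKM in KO without, and LUM, FAP, PDGFRB and the collagens COL1A1, COL1A2 and COL3A1 were also lower in treated libraries of both genotypes. VIM was higher, at 1269 and 1045 RPKM in KO with 4-OHT, against 777.3 and 774.0 in KO without, as was S100A4 at 1422 and 1384 RPKM, against 843.8 and 874.2, and both were likewise higher in WT with 4-OHT. PDGFRA was higher in KO with 4-OHT, at 69.4 and 69.5 RPKM, against 49.1 and 51.1 without, but the WT groups overlapped. Of the 9 epithelial markers, KRT5 and KRT14 were listed at 0 in all libraries, and nearly all of the list's sum came from KRT18 and KRT8. That sum was 265.2 to 275.0 RPKM in KO with 4-OHT, 488.0 to 544.1 in KO without, 280.9 to 294.4 in WT with and 775.0 to 798.9 in WT without. Summed endothelial markers stayed at or under 1.42 RPKM in every library and platelet markers at or under 0.785 RPKM. Leukocyte markers summed to 9.16 to 16.8 RPKM, mostly CD14, with CD68 listed at 0. The part of other cells in the results was not tested. In RNA from whole cultures, fewer cells of a type and less RNA per cell cannot be told apart.

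Promoters from RefSeq (GRCh38.p14) were matched to 26 of the 38 chains. The 4 shown are those of the chains with an entry that rose most (ITGA2 and ITGA6) and fell most (LAMA2 and LAMA3) with 4-OHT in either genotype. Each is the 250 bases before the RefSeq start, written 5′ to 3′ on the gene's strand, which is the plus strand for all 4. Capitals mark matches on either strand to the AP-1 letters TGANTCA, the TEAD letters GGAATG or the GC box GGGCGG, and no matches overlapped in these windows. The ITGA2 window is chr5:52989102-52989351, that of ITGA6 chr2:172427086-172427335, that of LAMA2 chr6:128882888-128883137 and that of LAMA3 chr18:23872770-23873019.
ITGA2: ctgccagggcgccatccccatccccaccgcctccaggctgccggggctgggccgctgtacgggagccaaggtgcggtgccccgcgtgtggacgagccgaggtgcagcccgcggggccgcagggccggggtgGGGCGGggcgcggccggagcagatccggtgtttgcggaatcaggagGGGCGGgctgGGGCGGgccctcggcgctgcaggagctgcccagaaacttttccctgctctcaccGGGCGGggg
ITGA6: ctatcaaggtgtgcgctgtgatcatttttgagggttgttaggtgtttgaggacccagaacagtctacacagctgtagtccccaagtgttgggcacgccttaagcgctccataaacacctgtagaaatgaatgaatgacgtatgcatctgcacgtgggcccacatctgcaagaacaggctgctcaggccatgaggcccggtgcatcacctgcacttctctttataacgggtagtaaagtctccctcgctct
LAMA2: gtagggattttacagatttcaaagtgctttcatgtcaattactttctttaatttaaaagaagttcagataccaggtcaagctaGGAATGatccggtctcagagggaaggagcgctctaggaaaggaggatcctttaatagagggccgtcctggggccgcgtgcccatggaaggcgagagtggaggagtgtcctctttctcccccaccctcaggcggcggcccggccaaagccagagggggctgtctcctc
LAMA3: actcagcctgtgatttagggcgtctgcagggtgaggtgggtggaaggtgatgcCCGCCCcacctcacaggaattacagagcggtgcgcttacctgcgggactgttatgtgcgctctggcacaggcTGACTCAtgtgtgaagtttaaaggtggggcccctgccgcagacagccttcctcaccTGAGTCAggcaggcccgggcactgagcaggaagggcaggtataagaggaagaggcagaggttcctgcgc

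The ITGA2 window held 4 GC boxes and no match to the other letters. The ITGA6 window held no match. The LAMA2 window held 1 TEAD match, at -167 from the start, and the LAMA3 window held 2 AP-1 matches, at -125 and -69, with 1 GC box at -197. This LAMA3 start lies inside the gene, which spans chr18:23689443-23956222, so the window is that of a shorter form, whereas the level of LAMA3 is scaled to its longest transcript. Among all 35116 RefSeq windows of the same length, 6.57% held an AP-1 match, 11.9% a TEAD match and 42.6% a GC box, against 1, 4 and 13 of the 26 chains. Of the 7 matched chains that rose in both genotypes, 0 held an AP-1 match, 2 a TEAD match and 4 a GC box. Of the 9 that fell in both, 1, 1 and 3 held them. These are matches of letters and say nothing of binding.

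Of the 38 chains, 30 passed the filter on low counts and were tested, namely 14 integrin alpha, 5 integrin beta and 11 laminin chains. The 8 that did not pass had at most 9 reads in any library. They were ITGA7, a laminin receptor chain of muscle, with 2 to 9 reads, the leukocyte chains ITGAD, ITGAL, ITGAM and ITGB7 with 0 to 8, the ITGAV partners ITGB6 and ITGB8 with 0 to 5, and the laminin chain LAMC3 with 0 to 2. Among those tested, ITGA2B, ITGAX and ITGB2, chains of platelets and leukocytes, had 13 reads or fewer in every library, so their values rest on few counts. Levels below are RPKM scaled by trimmed-mean (TMM) factors and are per length of the listed transcript. Fold changes are on the log2(RPKM + 0.1) scale, on which low genes show less than their true change, and adjusted p-values are from limma over all 16542 genes tested, called at 0.05. Each group holds 2 clones, so the p-values gauge differences against the spread between clones within the groups. Treated and untreated libraries come from the same clones, and this fit does not pair them. A fit that pairs them is given among the alternatives at the end. A difference between KO and WT contains any other trait in which those clones differ.

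The first question of the design is what 4-OHT does to these chains in each genotype. In KO clones 11 of the 30 tested chains rose with 4-OHT, 11 fell and 8 did not pass the test. In WT clones 10 rose, 11 fell and 9 did not pass. Over all genes, 55.7% were called in KO (28.7% higher and 26.9% lower) and 48.9% in WT (25.2% higher and 23.7% lower), so that a called chain is by itself no rare event. The median absolute log2 difference in KO was 1.23 for the chains, against 0.52 for all genes, and in WT it was 0.77 against 0.45. The signed medians lay near 0 (-0.12 in KO and -0.08 in WT, against 0.00 and -0.00 for all genes). Of the chains, 18 in KO and 14 in WT were called with at least a 2-fold change, which 23.9% and 18.4% of all genes were. The same 10 chains rose in both genotypes, among them ITGA2, ITGA3, ITGA5, ITGA6, ITGB3, ITGB5 and LAMB3, and the same 10 fell in both (ITGA1, ITGA4, ITGA11, ITGAV, ITGB4, LAMA2, LAMA3, LAMA4, LAMA5 and LAMB2). No chain was called in opposite directions. The share of all genes called alike in both genotypes was not computed, so this agreement cannot be read as a trait of these chains.

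**Figure D1:**
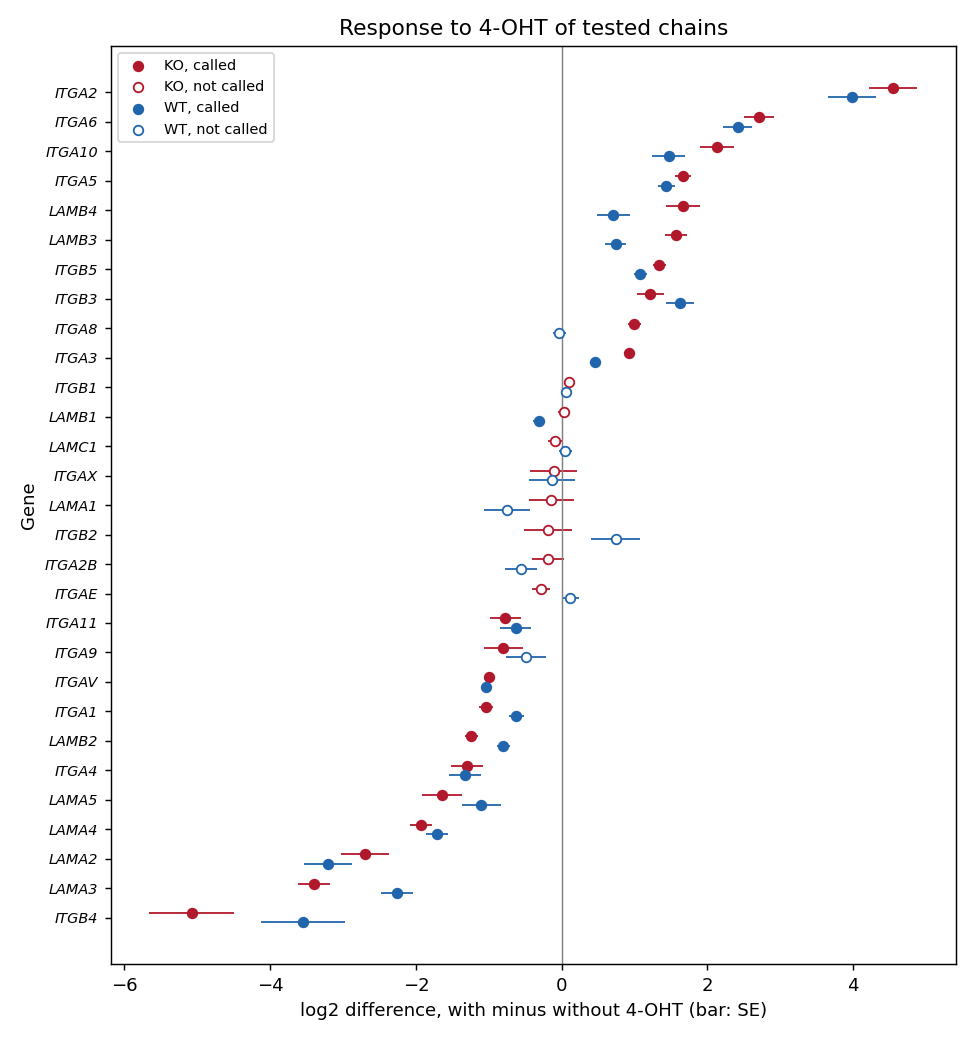
Response to 4-OHT of tested chains as log2 difference, with minus without 4-OHT, for KO (red) and WT (blue). Bars are SE and filled points passed limma's test. ITGA2 lies farthest to the right, at 4.55 in KO and 3.99 in WT, and ITGB4 farthest to the left, at -5.08 and -3.55.

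Among the collagen receptors, ITGA2 and ITGA10 rose while ITGA1 and ITGA11 fell. ITGA2 (chr5:52989326-53094779, plus strand) encodes the alpha chain of the collagen receptor that platelets and epithelia also carry. It stood at 131.2 and 124.5 RPKM in KO clones 66 and 69 with 4-OHT, against 5.07 and 5.7 RPKM without it. In WT clones 15 and 54 it stood at 181.1 and 165.3 RPKM with 4-OHT, against 7.07 and 16.5 RPKM without it. All 4 treated libraries lay far above all 4 untreated ones. The rise was 23.4-fold in KO (log2 difference 4.55 ± 0.33 SE, adjusted p = 3.38e-05) and 15.9-fold in WT (3.99 ± 0.33, adjusted p = 8.61e-05). The WT value was 3.38 without untreated WT clone 15 and 4.59 without untreated WT clone 54. ITGA10, first known from cartilage, rose 4.37-fold in KO (5.35 and 4.86 RPKM with 4-OHT, against 1.09 and 1.09 without; adjusted p = 0.000197). In WT it rose 2.78-fold (3.43 and 5.73 RPKM, against 1.44 and 1.63; adjusted p = 0.00152).

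ITGA1, the other widely expressed collagen receptor chain, moved the opposite way to ITGA2. It stood at 6.14 and 6.42 RPKM in KO with 4-OHT, against 13.5 and 12.6 RPKM without it, a 2.06-fold fall (log2 -1.04 ± 0.10, adjusted p = 0.000105). In WT it stood at 8.31 and 8.28 RPKM, against 11.8 and 13.8 RPKM, a 1.53-fold fall (-0.62 ± 0.10, adjusted p = 0.00172). ITGA11, a chain of collagen-producing fibroblasts, fell 1.71-fold in KO (adjusted p = 0.0176) and 1.55-fold in WT (adjusted p = 0.0428). Its levels were 5.81 and 5.03 RPKM in KO with 4-OHT, against 9.86 and 8.75 without, and 4.93 and 3.62 RPKM in WT with 4-OHT, against 8.03 and 5.42 without. The KO call of ITGA11 ended without the KO library of clone 66 without 4-OHT (adjusted p = 0.0937), without that of clone 69 with 4-OHT (0.0926) and with no filter on low counts (0.0566). Its WT call ended without any of 6 libraries, which were WT clone 15 without 4-OHT (0.198), WT clone 54 with it (0.21), and all KO libraries (0.0585 to 0.0656), as well as with no filter (0.12) and with only the 4 WT libraries in the fit (0.101).

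Both expressed laminin receptor chains rose. ITGA6 (chr2:172427354-172506282, plus strand) stood at 237.2 and 248.9 RPKM in KO with 4-OHT, against 35.9 and 38.3 RPKM without it. In WT clones its level was 214.6 and 208.7 RPKM with 4-OHT, against 50.8 and 30.8 RPKM without it. Treated and untreated libraries did not overlap, and the untreated WT clones lay farther apart than the others. The rise was 6.53-fold in KO (log2 2.71 ± 0.20, adjusted p = 3.74e-05) and 5.34-fold in WT (2.42 ± 0.20, adjusted p = 8.92e-05). ITGA3 (chr17:50055968-50090481, plus strand), the alpha chain of a laminin receptor of epithelia, stood at 251.6 and 249.0 RPKM in KO with 4-OHT, against 134.3 and 129.5 RPKM without it. In WT it stood at 294.5 and 309.0 RPKM, against 211.1 and 228.4 RPKM. The treated libraries were higher in both genotypes, and the step was larger in KO, 1.9-fold (0.92 ± 0.07, adjusted p = 4.33e-05), than in WT, 1.37-fold (0.46 ± 0.07, adjusted p = 0.0015); the test of that difference is given with the other differences of responses.

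The partner chain ITGB4 (chr17:75721328-75757818, plus strand), which pairs only with ITGA6 and links it to keratin filaments, went down while ITGA6 went up. It held 10 and 15 reads in KO with 4-OHT, against 975 and 870 reads without it, or 0.0768 and 0.108 RPKM, against 6.85 and 5.98 RPKM. In WT it held 9 and 9 reads with 4-OHT, against 543 and 114 reads without it, or 0.0607 and 0.0695 RPKM, against 3.87 and 0.847 RPKM. All treated libraries were close to 0, and the 2 untreated WT clones differed 4.57-fold from each other, the widest gap between clones of any chain with a mean of at least 1 RPKM over the 8 libraries. The fall was 33.9-fold in KO (log2 -5.08 ± 0.58, adjusted p = 0.000258) and 11.7-fold in WT (-3.55 ± 0.58, adjusted p = 0.00189). The size in WT rests on the untreated clones, with a log2 difference of -2.52 without clone 15 and -4.58 without clone 54 (adjusted p = 0.00058 and 4.40e-05). It was the largest fall of any chain in KO and in WT in this fit, but without untreated WT clone 15 the WT fall of LAMA2 was larger (-2.78), as it was with a pseudocount of 1 (-2.84 for LAMA2 and -1.49 for ITGB4).

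The chains that read the RGD motif split by alpha chain. ITGA5, the classical fibronectin receptor chain, stood at 136.3 and 120.9 RPKM in KO with 4-OHT, against 41.9 and 38.9 RPKM without it. The WT libraries had 162.7 and 165.3 RPKM, against 54.5 and 66.4 RPKM. It rose 3.18-fold in KO (log2 1.67 ± 0.11, adjusted p = 2.28e-05) and 2.72-fold in WT (1.44 ± 0.11, adjusted p = 6.07e-05), with no overlap between treated and untreated libraries. ITGAV, the alpha chain of the vitronectin receptors and of integrins that release latent TGF-beta, went down instead. It stood at 12.4 and 12 RPKM in KO with 4-OHT, against 24.1 and 24.6 without, and at 10.1 and 10.7 RPKM in WT with 4-OHT, against 21.1 and 21.7 without. Its clones agreed closely, and the fall was 1.99-fold in KO (-0.99 ± 0.07, adjusted p = 3.32e-05) and 2.05-fold in WT (-1.04 ± 0.07, adjusted p = 4.10e-05).

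ITGB5 and ITGB3, beta chains that pair with ITGAV, rose while ITGAV fell. ITGB5 stood at 85.3 and 90.1 RPKM in KO with 4-OHT, against 36.2 and 33.1 without, and at 99 and 91.5 RPKM in WT with 4-OHT, against 42 and 48 without. The rise was 2.53-fold in KO (log2 1.34 ± 0.09, adjusted p = 2.76e-05) and 2.12-fold in WT (1.08 ± 0.09, adjusted p = 0.000102). ITGB3 (chr17:47253846-47311816, plus strand), the beta chain that ITGAV shares with the platelet chain ITGA2B, stood at 2.06 and 1.61 RPKM in KO with 4-OHT, against 0.643 and 0.822 without. In WT it stood at 9.23 and 8.33 RPKM with 4-OHT, against 2.46 and 3.09 without. It rose 2.33-fold in KO (1.22 ± 0.19, adjusted p = 0.00125) and 3.1-fold in WT (1.63 ± 0.19, adjusted p = 0.000408), and its level in KO with 4-OHT was still below that of untreated WT cells. In GENCODE 29, 51.6% of the exon bases of ITGB3 are shared with the gene AC068234.1, which held 0 reads in every library. How reads on shared bases were counted is not given, so the level of ITGB3 may leave them out.

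ITGA8, which binds nephronectin and fibronectin and marks mesenchymal cells, was called only in KO. It stood at 22.7 and 22 RPKM in KO with 4-OHT, against 10.9 and 11.3 without (2.01-fold, log2 1.00 ± 0.09, adjusted p = 9.95e-05). Its WT level was 20 and 19.9 RPKM with 4-OHT, against 22.3 and 18.7 without (-0.03 ± 0.09, adjusted p = 0.788). Untreated KO clones were the low ones, and the libraries of the other 3 groups all lay between 18.7 and 22.7 RPKM. ITGA4, which binds VCAM1 and fibronectin, stood at 26.6 and 32.4 RPKM in KO with 4-OHT, against 74.5 and 70.8 without, and at 27.7 and 22.8 RPKM in WT with 4-OHT, against 81.2 and 49.1 without. It fell 2.47-fold in KO (adjusted p = 0.00201) and 2.51-fold in WT (adjusted p = 0.00232). ITGA9, with 8 to 41 reads a library, fell 1.74-fold in KO (adjusted p = 0.0358), and this was no longer called without the treated KO library of clone 69 (0.196), without either untreated KO library (0.103 and 0.123 without clones 66 and 69) and with no filter (0.19).

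ITGB1, the beta chain shared by most fibroblast integrins, passed neither test. It stood at 957.5 and 980.0 RPKM in KO with 4-OHT, against 885.1 and 917.9 without (log2 0.10 ± 0.07, adjusted p = 0.243), and at 867.5 and 910.5 RPKM in WT with 4-OHT, against 880.2 and 827.2 without (0.06 ± 0.07, adjusted p = 0.521, or -0.02 when scaled to the library total only). These levels cannot be set beside those of other chains, because the table scales ITGB1 to a listed transcript of 552 bases. Over the longest GENCODE 29 transcript, 3784 bases, the same reads would give 120.7 to 142.9 RPKM. The differences between groups do not depend on that length. ITGAE, a leukocyte chain that binds E-cadherin, stood between 4.41 and 6.39 RPKM in all libraries and passed neither test, though its KO difference was called when scaled to the library total only (log2 -0.34, adjusted p = 0.0404).

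**Figure D2:**
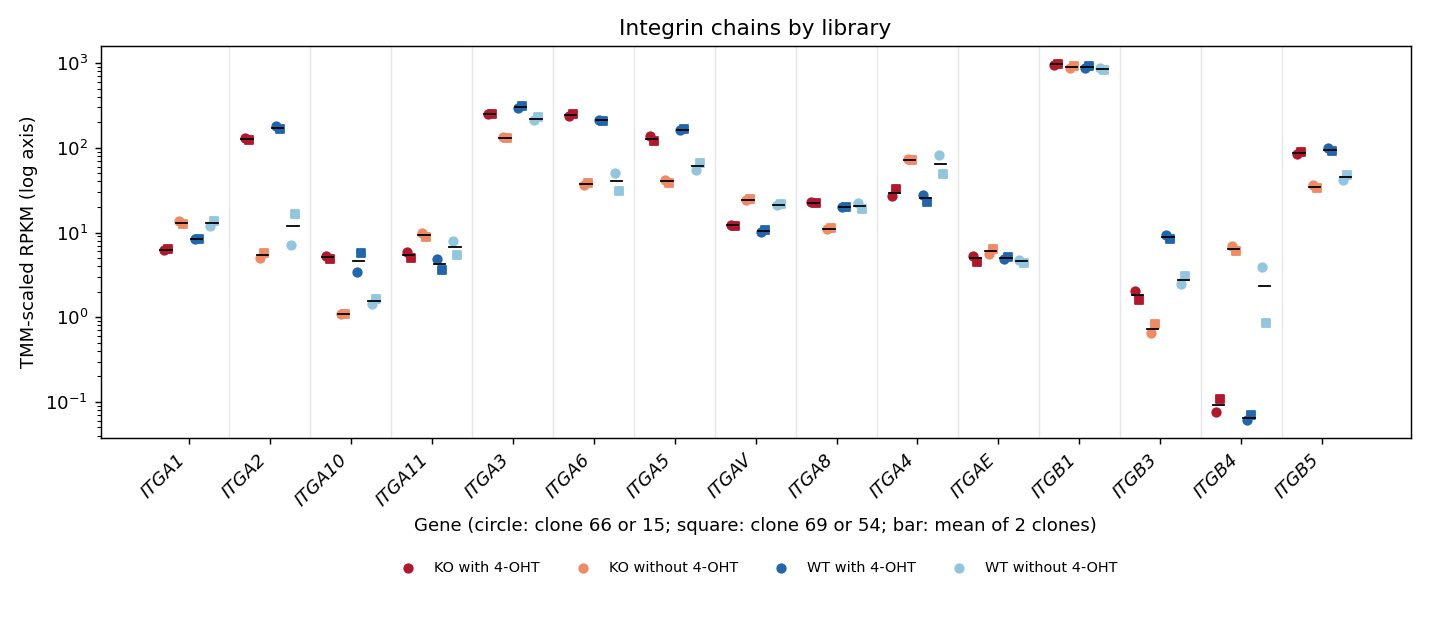
TMM-scaled RPKM (log axis) of the integrin chains with a mean of at least 1 RPKM over the 8 libraries, by library. Circles are clones 66 and 15, squares clones 69 and 54, and bars the means of 2 clones; ITGA2 and ITGA6 are high in all treated libraries, ITGB4 is near the bottom in them, and ITGB1 is level but scaled to a short listed transcript.

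All laminin alpha chains but LAMA1 fell. LAMA3 stood at 0.259 and 0.243 RPKM in KO with 4-OHT, against 3.56 and 3.64 without, a 10.6-fold fall (log2 -3.40 ± 0.22, adjusted p = 2.20e-05). In WT it stood at 0.488 and 0.312 RPKM with 4-OHT, against 2.38 and 2.14 without, a 4.79-fold fall (-2.26 ± 0.22, adjusted p = 0.000175). LAMA2 (chr6:128883141-129516569, plus strand), the alpha chain of muscle and mesenchymal laminin, stood at 4.24 and 5.1 RPKM in KO with 4-OHT, against 34.2 and 27.8 without. All treated libraries of both chains lay well below the untreated ones. For LAMA2 the WT values were 3.4 and 1.9 RPKM with 4-OHT, against 33 and 18.1 without, with clone 54 at the lower value in both states. The LAMA2 fall was 6.51-fold in KO (-2.70 ± 0.33, adjusted p = 0.000391) and 9.28-fold in WT (-3.21 ± 0.33, adjusted p = 0.000242).

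LAMA4, an alpha chain of vessel walls and mesenchyme, stood at 5.85 and 6.17 RPKM in KO with 4-OHT, against 22.4 and 23.9 without, and at 8.12 and 11 RPKM in WT with 4-OHT, against 28.7 and 34 without. The fall was 3.8-fold in KO (log2 -1.93 ± 0.15, adjusted p = 4.72e-05) and 3.28-fold in WT (-1.71 ± 0.15, adjusted p = 0.000113). LAMA5, the broadly expressed epithelial and vascular alpha chain, was low, at 0.416 and 0.301 RPKM in KO with 4-OHT, against 1.57 and 1.11 without, and at 0.104 and 0.135 RPKM in WT with 4-OHT, against 0.419 and 0.326 without. It fell 3.12-fold in KO (adjusted p = 0.00145) and 2.14-fold in WT (adjusted p = 0.0114). The WT call of LAMA5 ended without either library of WT clone 15 (adjusted p = 0.0562 without the treated and 0.0532 without the untreated one), with a pseudocount of 1 (0.0596) and with no filter (0.0509). LAMA1, an alpha chain of embryonic basement membranes, passed neither test (log2 -0.14 ± 0.31 in KO and -0.75 ± 0.31 in WT), but its WT fall was called without untreated WT clone 15 (-1.22, adjusted p = 0.00788) and with limma-voom (-0.77, 0.0363).

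Summed over the 5 alpha chains, laminin alpha RNA was 12.3 ± 0.481 RPKM in KO with 4-OHT, against 60.2 ± 3.63 without, and 14.8 ± 1.06 RPKM in WT with 4-OHT, against 63.3 ± 5.28 without (SD, n = 2 each). LAMA2 and LAMA4 made up most of that sum in each library. The LAMA4 share was 48.7% and 48.6% in KO with 4-OHT, against 35.6% and 41.4% without, and 57.7% and 70.8% in WT with 4-OHT, against 42.8% and 57.1% without. The LAMA2 share was 35.3% and 40.2% in KO with 4-OHT, against 54.4% and 48.3% without. In WT it was 24.2% and 12.2% with 4-OHT, against 49.3% and 30.4% without, so within each clone the treated library had the lower LAMA2 share. The summed beta chains changed far less, to 130.5 ± 1.6 RPKM in KO with 4-OHT, against 169.5 ± 9.35 without, and to 124.0 ± 1.2 RPKM in WT with 4-OHT, against 174.5 ± 5.49 without. These sums are descriptions and carry no test.

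**Figure D3:**
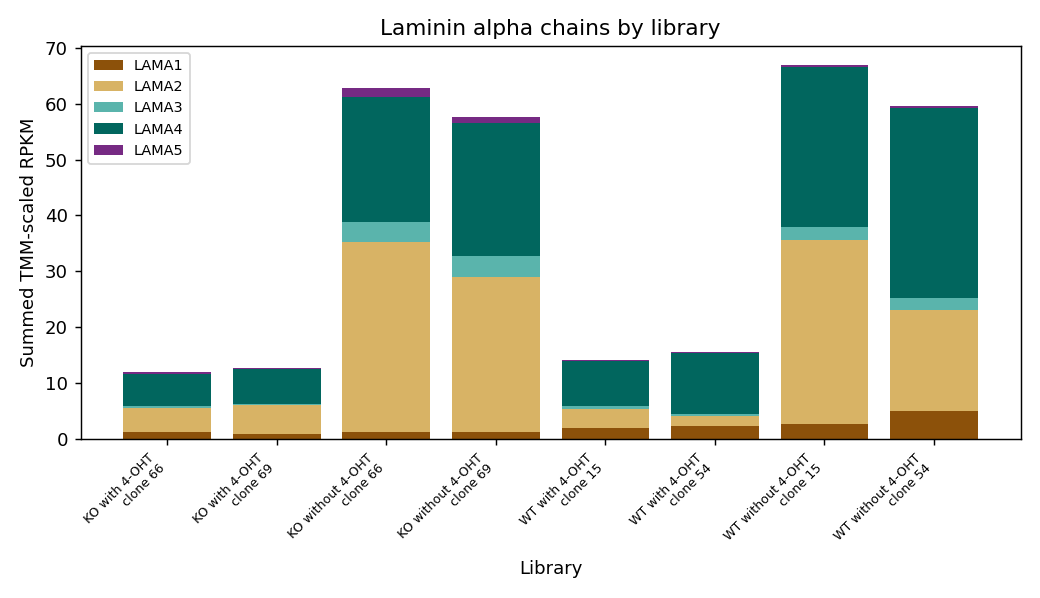
Summed TMM-scaled RPKM of the 5 laminin alpha chains in each library, stacked by chain. Treated libraries reach 12 to 15.6 RPKM and untreated ones 57.7 to 67.1 RPKM.

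LAMB3, a beta chain of epidermal laminin, rose while LAMA3 fell. It stood at 4.79 and 5.58 RPKM in KO with 4-OHT, against 1.57 and 1.79 without (2.97-fold, log2 1.57 ± 0.15, adjusted p = 0.000127). WT clones had it at 4.7 and 4.29 RPKM with 4-OHT, against 2.95 and 2.37 without (1.67-fold, 0.74 ± 0.15, adjusted p = 0.00576). Treated and untreated libraries did not overlap in either genotype. LAMB3 stayed low beside LAMB1.

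Of the abundant laminin chains LAMB1, LAMB2 and LAMC1, LAMB2 moved most. LAMB2, the beta chain of mature basement membranes, stood at 33.8 and 31.3 RPKM in KO with 4-OHT, against 82.6 and 71.6 without, and at 46.6 and 46.4 RPKM in WT with 4-OHT, against 83.4 and 78.5 without. It fell 2.36-fold in KO (log2 -1.24 ± 0.09, adjusted p = 3.22e-05) and 1.74-fold in WT (-0.80 ± 0.09, adjusted p = 0.000324). LAMB1, the broadly expressed beta chain, stood at 90.5 and 94.4 RPKM in KO with 4-OHT, against 91.8 and 89.5 without (0.03 ± 0.08, adjusted p = 0.797, or -0.03 when scaled to the library total only). In WT it stood at 73.4 and 72.3 RPKM with 4-OHT, against 84.2 and 97.4 without, and fell 1.24-fold (-0.31 ± 0.08, adjusted p = 0.0168). That call ended without the treated WT library of clone 15 (0.0544) or clone 54 (0.0692), without the untreated one of clone 54 (0.0539) and with only the 4 WT libraries in the fit (0.0599). LAMC1, the gamma chain of most laminins, stood at 174.3 and 156.8 RPKM in KO with 4-OHT, against 171.1 and 180.7 without, and at 231.6 and 213.1 RPKM in WT with 4-OHT, against 228.4 and 200.3 without. It passed neither test.

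LAMB4, a chain of unsettled function, rested on 2 to 37 reads a library. It held 37 and 36 reads in KO with 4-OHT, against 2 and 3 without, and 15 and 17 reads in WT with 4-OHT, against 2 and 7 without. It rose 3.18-fold in KO (adjusted p = 0.000708) and 1.64-fold in WT (adjusted p = 0.0376). These folds are held down by the added 0.1 RPKM, which exceeds the untreated levels (0.0141 to 0.0523 RPKM). With limma-voom the log2 rise was 3.74 in KO and 1.92 in WT. The WT call ended without any library but that of untreated WT clone 54 (adjusted p = 0.172 without untreated WT clone 15, 0.0717 and 0.153 without treated WT clones 15 and 54, and 0.0578 to 0.059 without a KO library), and also with a pseudocount of 1 (0.101), with no filter (0.224) and with only the 4 WT libraries (0.0817).

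**Figure D4:**
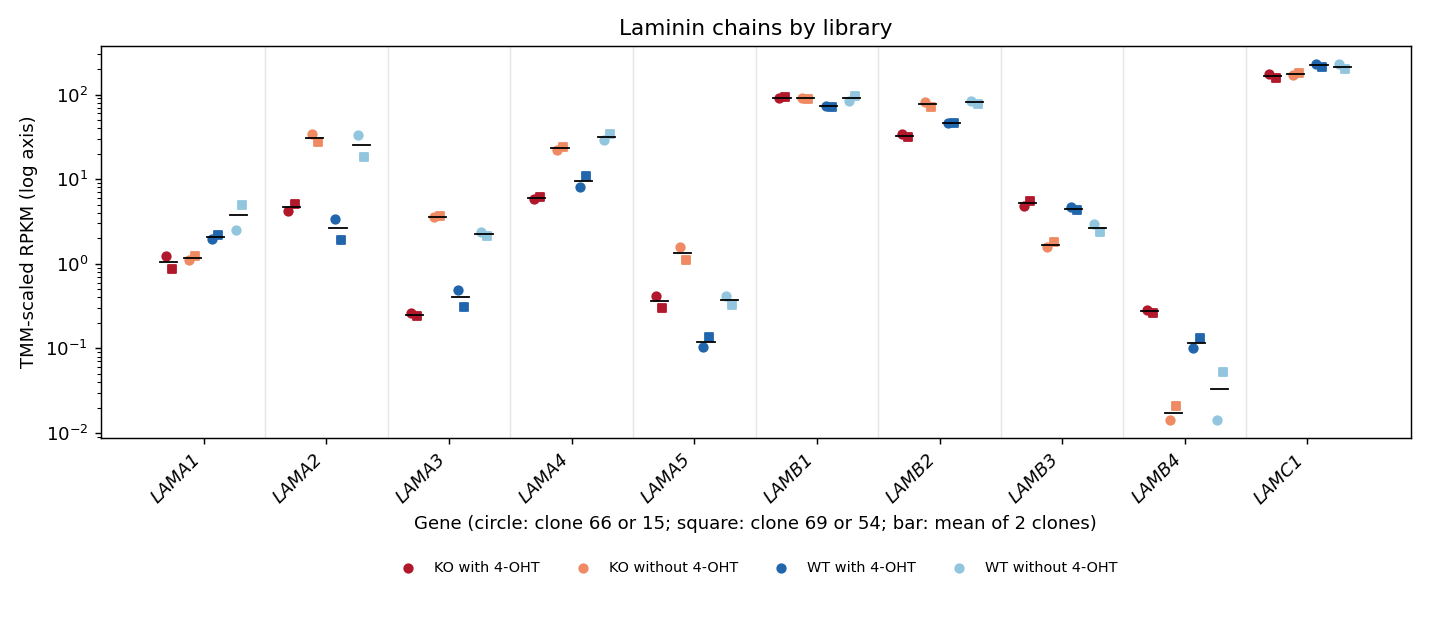
TMM-scaled RPKM (log axis) of laminin chains by library. Circles are clones 66 and 15, squares clones 69 and 54, and bars the means of 2 clones; LAMA2, LAMA3 and LAMA4 are low in all treated libraries, LAMB3 is higher in each genotype with 4-OHT than without, and LAMB1 and LAMC1 differ little.

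Untreated KO and WT cells were compared next, which asks what loss of SNORA13 goes with before 4-OHT. Of the 30 chains, 1 was higher in KO, 5 were lower and 24 did not pass the test, or 20.0% called where 6.32% of all genes were (2.58% higher and 3.74% lower). ITGB3 was the most reduced chain, at 0.643 and 0.822 RPKM in KO, against 2.46 and 3.09 RPKM in WT (3.45-fold lower, log2 -1.79 ± 0.19, adjusted p = 0.00771). ITGA8 stood at 10.9 and 11.3 RPKM in KO, against 22.3 and 18.7 in WT (1.83-fold lower, -0.87 ± 0.09, adjusted p = 0.00771). ITGA3 stood at 134.3 and 129.5 RPKM in KO, against 211.1 and 228.4 in WT (1.66-fold lower, -0.73 ± 0.07, adjusted p = 0.00708). Both KO clones lay below both WT clones for each of these 3 genes. ITGA5 was 1.49-fold lower (-0.58 ± 0.11, adjusted p = 0.029), at 41.9 and 38.9 RPKM in KO, against 54.5 and 66.4 in WT. LAMA1 was 2.89-fold lower (-1.53 ± 0.31, adjusted p = 0.0362), at 1.1 and 1.22 RPKM in KO, against 2.52 and 4.96 in WT. LAMA5 was the 1 chain that was higher, at 1.57 and 1.11 RPKM in KO, against 0.419 and 0.326 in WT (3.02-fold, 1.60 ± 0.27, adjusted p = 0.0209).

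These calls rest on few libraries. Those of ITGA3, ITGA8 and ITGB3 ended without the untreated KO library of clone 66 (adjusted p = 0.0654, 0.0703 and 0.0701) and without that of clone 69 (0.0702, 0.0702 and 0.0574), and that of LAMA5 ended without either of them (0.124 and 0.0909) or without untreated WT clone 54 (0.075), with no filter (0.0775) and with only the 4 untreated libraries in the fit (0.0572). Those of ITGA5 and LAMA1 ended without any library but that of untreated WT clone 15 (0.0504 to 0.184 for ITGA5 and 0.0566 to 0.169 for LAMA1), with no filter (0.0792 and 0.104) and with only the 4 untreated libraries (0.088 and 0.0896). Several chains with wide gaps between the genotypes did not pass, and their untreated WT clones lay apart. ITGA2 stood at 5.07 and 5.7 RPKM in KO, against 7.07 and 16.5 in WT (1.99-fold, adjusted p = 0.114), and ITGB4 at 6.85 and 5.98 RPKM in KO, against 3.87 and 0.847 in WT (3.35-fold, adjusted p = 0.115). Without untreated WT clone 15 both were called (log2 -1.60, adjusted p = 0.00197 for ITGA2, and 2.78, 0.00388 for ITGB4), and so was ITGB5 (-0.47, 0.0269). With limma-voom ITGB4 (0.0298), ITGB5 (0.0289), LAMA3 (0.00743) and LAMB3 (0.0371) were called, and LAMA3 also with a pseudocount of 1 (0.0367). ITGA6, uncalled in the main fit (log2 -0.09 ± 0.20, adjusted p = 0.81), was called under an alternative run too. Of the 24 chains with a mean of at least 1 RPKM over the 8 libraries, 6 differed more than 1.5-fold between the untreated WT clones (ITGA2, ITGA4, ITGA6, ITGB4, LAMA1 and LAMA2), against 0 between the untreated KO clones. With 4-OHT, 3 did so between the WT clones (ITGA10, LAMA2 and LAMA3) and 0 between the KO clones. The share of all genes beyond this cut was not computed.

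With 4-OHT, 2 of the 30 chains were higher in KO than in WT, 7 were lower and 21 did not pass, or 30.0% called where 14.4% of all genes were (6.7% higher and 7.65% lower). ITGB3 was again the most reduced, at 2.06 and 1.61 RPKM in KO, against 9.23 and 8.33 RPKM in WT (4.61-fold lower, log2 -2.20 ± 0.19, adjusted p = 0.00286), and this call held under every alternative run. The other integrin calls were small. ITGA1 was 1.32-fold lower (-0.40 ± 0.10, adjusted p = 0.038), at 6.14 and 6.42 RPKM in KO, against 8.31 and 8.28 in WT, and ITGA3 was 1.21-fold lower (-0.27 ± 0.07, adjusted p = 0.0458), at 251.6 and 249.0 RPKM, against 294.5 and 309.0.

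Laminin chains were called as well. LAMB2 stood at 33.8 and 31.3 RPKM in KO with 4-OHT, against 46.6 and 46.4 in WT with 4-OHT (1.43-fold lower, log2 -0.51 ± 0.09, adjusted p = 0.013). LAMC1 stood at 174.3 and 156.8 RPKM in KO, against 231.6 and 213.1 in WT (1.34-fold lower, -0.43 ± 0.09, adjusted p = 0.0284). For both chains the KO clones lay below both WT clones. LAMA4 was 1.56-fold lower (-0.65 ± 0.15, adjusted p = 0.032), at 5.85 and 6.17 RPKM in KO, against 8.12 and 11 in WT. LAMA5 was 2.07-fold higher (1.05 ± 0.27, adjusted p = 0.0404), at 0.416 and 0.301 RPKM in KO, against 0.104 and 0.135 in WT. LAMB1 was 1.27-fold higher (0.34 ± 0.08, adjusted p = 0.0361), at 90.5 and 94.4 RPKM in KO, against 73.4 and 72.3 in WT.

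Apart from that of ITGB3, the calls named here depended on single libraries. Those of ITGA1, ITGA3, LAMA5, LAMB1 and LAMC1 ended without any treated library and without either untreated KO library (adjusted p = 0.0701 to 0.163, 0.0907 to 0.22, 0.0582 to 0.171, 0.0728 to 0.174 and 0.059 to 0.181), as did that of LAMA4 except without treated WT clone 15 (0.063 to 0.137). LAMB2 lost its call without treated WT clones 15 (0.0808) or 54 (0.0529) or treated KO clone 69 (0.104). With no filter the calls of ITGA1 (0.101), ITGA3 (0.0724), LAMA4 (0.0971), LAMA5 (0.145), LAMB1 (0.0826) and LAMC1 (0.0693) ended. Scaling to the library total only ended those of ITGA1 (0.0561), ITGA3 (0.0559) and LAMB1 (0.0536), a fit of only the 4 treated libraries those of ITGA3 (0.0602) and LAMA4 (0.0546), and a pseudocount of 1 that of LAMA5 (0.138). Calls were also gained, those of ITGA5 (log2 -0.35) and LAMA1 (-0.92) without untreated WT clone 15 or 54. Both were also called with only the 4 treated libraries (adjusted p = 0.0499 and 0.0494), and ITGA5 (0.0348) and ITGAV (0.0497) with limma-voom. ITGA2 and LAMB4, which did not pass in the main fit (adjusted p = 0.414 and 0.065), gained a call under an alternative too.

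**Figure D5:**
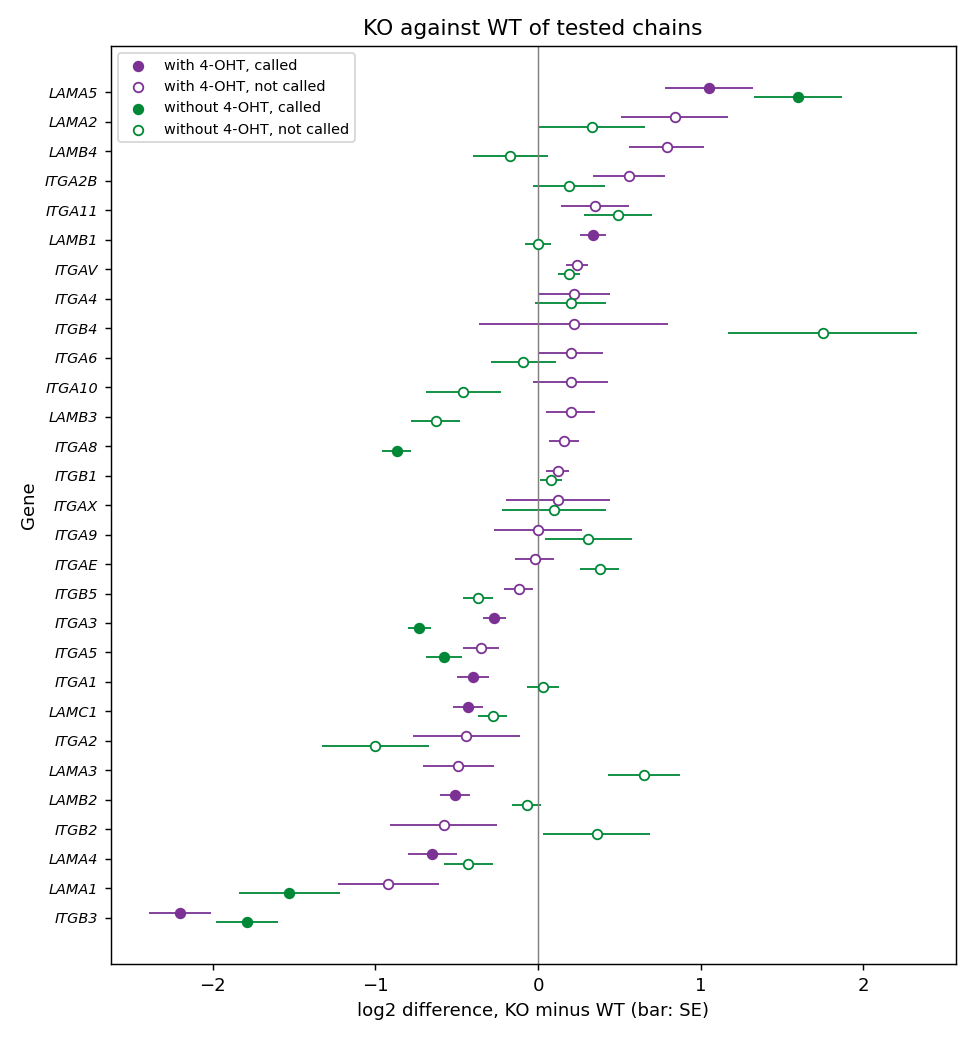
KO minus WT log2 difference of tested chains with 4-OHT (purple) and without it (green). Bars are SE and filled points passed limma's test; ITGB3 lies farthest to the left with 4-OHT (-2.20) and without it (-1.79), and LAMA5 to the right in both (1.05 and 1.60).

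The last comparison asks whether the response to 4-OHT differed between genotypes (KO response minus WT response). Of the 30 chains, 2 were called, both higher, or 6.7% where 7.44% of all genes were (4.36% higher and 3.08% lower). ITGA8 (chr10:15513949-15720125, minus strand) had a log2 response of 1.00 in KO and -0.03 in WT, a difference of 1.04 ± 0.13 (adjusted p = 0.0071), which held under every alternative run. ITGA3 had a log2 response of 0.92 in KO and 0.46 in WT, a difference of 0.47 ± 0.10 (adjusted p = 0.0367). For both genes untreated KO cells were low, and the treated KO cells lay at or closer to the WT level. The ITGA3 call ended with no filter (adjusted p = 0.0637) and without any library but that of untreated WT clone 15, which were untreated WT clone 54 (0.0557), untreated KO clones 66 and 69 (0.113 and 0.152), treated WT clones 15 and 54 (0.112 and 0.0622) and treated KO clones 66 and 69 (0.107 and 0.12).

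Some laminin chains came close to the threshold. LAMB3 had a log2 response of 1.57 in KO and 0.74 in WT, a difference of 0.83 ± 0.22 (adjusted p = 0.065). With clone as a replicate block it was called (adjusted p = 0.0473), and likewise with limma-voom on the recovered reads (0.0316). LAMA3 had a difference of -1.14 ± 0.31 (adjusted p = 0.0702) and LAMB2 one of -0.44 ± 0.13 (adjusted p = 0.0789), with the deeper fall in KO for each. LAMA3 was called with limma-voom (-1.33, adjusted p = 0.0158), with a pseudocount of 1 (-0.66, 0.0395) and without treated WT clone 54 (-1.40, 0.0421), and LAMB2 with limma-voom (-0.44, 0.0466). ITGB4 had a difference of -1.53 ± 0.81 (adjusted p = 0.292), which was called without untreated WT clone 15 (-2.56, adjusted p = 0.00737) and was -0.50 without untreated WT clone 54 (0.433). ITGB3 had a difference of -0.42 ± 0.27 (adjusted p = 0.381). The differences of ITGA2 (0.56 ± 0.46, adjusted p = 0.497), ITGA6 (0.29 ± 0.28, 0.565) and LAMB1 (0.34 ± 0.12, 0.127) were not called in the main fit. Each of these was called under an alternative run.

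The partners of these chains were read from 4 lists of textbook members, chosen with earlier results of these data known. The counts and medians of these lists are therefore descriptions and no independent test. Up to 4 members of smallest p were read per list and comparison, so a gene given for 1 genotype may have changed in the other too. Of 17 tested basement membrane partners of laminin, 3 rose with 4-OHT and 11 fell in KO, and likewise 3 and 11 in WT, with a median log2 difference of -0.82 in both, against 0.00 and -0.00 over all genes. Of all genes 28.7% rose and 26.9% fell in KO, and 25.2% rose and 23.7% fell in WT, and the counts of all 4 lists stand beside these shares. NTN4, a netrin that binds laminin gamma chains, stood at 4.41 ± 0.432 RPKM in KO with 4-OHT, against 205.4 ± 11.7 without, a 45.7-fold fall (adjusted p = 2.18e-06). In WT clones its level was 21.1 ± 2.16 RPKM, against 145.0 ± 41.1, a 6.71-fold fall (adjusted p = 3.82e-05). NTN4 was also the 1 partner of these 17 called in the difference of responses (log2 -2.77 ± 0.26, adjusted p = 0.0053). Of all genes 7.44% were called there, and 1 of 17 lies near that share. BCAM, a receptor for LAMA5 laminins, fell 5.48-fold in KO (adjusted p = 2.25e-05) and 6.76-fold in WT (adjusted p = 2.14e-05), and NID2, which links laminin to collagen IV, fell 4.09-fold in KO (adjusted p = 2.30e-05). COL17A1, the hemidesmosome collagen, rose 5.35-fold in WT (adjusted p = 0.000121), to 0.719 ± 0.0893 RPKM with 4-OHT, against 0.0528 ± 0.00158 without.

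Among 25 tested ligands of integrins other than laminins, 7 rose and 16 fell in KO, and 5 rose and 15 fell in WT (medians -0.96 and -0.86). COL1A2, a collagen I chain and ligand of ITGA1, ITGA2 and ITGA11 integrins, stood at 313.9 ± 32.2 RPKM in KO with 4-OHT, against 1308 ± 138 without, and at 258.9 ± 18.7 RPKM in WT with 4-OHT, against 1705 ± 66.5 without. It fell 4.16-fold in KO (adjusted p = 1.11e-05) and 6.59-fold in WT (adjusted p = 5.19e-06). LTBP1, which holds latent TGF-beta in the matrix, rose 12.4-fold in KO (adjusted p = 9.63e-06). COL3A1 was called in the difference of responses (log2 0.96 ± 0.12, adjusted p = 0.0071), with a smaller loss in KO. In that comparison 4 of the 25 ligands were called higher and 2 lower, where 4.36% and 3.08% of all genes were. Of 32 focal adhesion adaptors and kinases, all tested, 9 rose and 14 fell in KO, and 11 rose and 13 fell in WT (medians -0.19 and 0.01). The 9 that rose in KO are close to the share of all genes that did. In the difference of responses 2 of the 32 were called higher and 4 lower. KANK1, which binds talin at the rim of adhesions, fell 5.37-fold in KO (adjusted p = 3.29e-06) and 4.18-fold in WT (adjusted p = 8.82e-06). Of 22 receptors and partners that are not integrins, 10 rose and 10 fell in KO, and 9 rose and 10 fell in WT (medians -0.17 and -0.06). SDC2 fell 5.55-fold in KO (adjusted p = 3.93e-06) and 4.78-fold in WT (adjusted p = 7.98e-06). PLAUR, the urokinase receptor and an integrin partner, rose 2.81-fold in KO (adjusted p = 1.38e-05) and 2.58-fold in WT (adjusted p = 2.65e-05). Of these 22, 1 was called higher and 0 lower in the difference of responses.

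Between genotypes fewer partners were called, as was so over all genes, of which 6.32% were called without 4-OHT (2.58% higher and 3.74% lower) and 14.4% with it (6.7% higher and 7.65% lower). Counts of 1 or 2 in these lists lie near those shares. Without 4-OHT, 1 of 17 basement membrane partners was higher in KO and 1 lower, 0 of 25 other ligands higher and 2 lower, 0 of 32 focal adhesion genes higher and 4 lower, and 0 of 22 other receptors higher and 3 lower. With 4-OHT the counts were 2 and 4, 2 and 7, 1 and 9, and 2 and 1 in the same order. AGRN, a heparan sulphate proteoglycan that binds laminin, was the partner higher in KO without 4-OHT, at 50.6 ± 3.63 RPKM, against 29.7 ± 1.81 in WT (adjusted p = 0.0094). LIMS2, a component of the complex that joins integrin tails to actin, stood at 1.43 ± 0.187 RPKM in KO with 4-OHT, against 3.11 ± 0.0107 in WT with 4-OHT (2.1-fold lower, adjusted p = 0.00554). SDC1, a laminin-binding syndecan, stood at 68.6 ± 2.57 RPKM in KO with 4-OHT, against 43.8 ± 2.32 in WT with 4-OHT (1.57-fold higher, adjusted p = 0.00501).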

How the data were processed

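The authors deposited 1 table of 58870 genes in RPKM, with a column per library and a file name that speaks of counts. Per the labels' protocols, RNA came from a column kit that keeps small RNA, was treated with DNase and was made into stranded total RNA libraries. The submitters' processing notes name GRCh38, STAR, featureCounts and edgeR. Versions, roles and the strand setting of the counting were not given in the sources used here, so reads of a gene and its antisense partner may not be told apart. Per the file headers, a minus sign follows the clone number in some columns. It was read as without 4-OHT, and its absence as with 4-OHT, though no label explains the sign.

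Where the listed transcript had a length in GENCODE 29, 100.0% of RPKM values above 0 became whole reads within 0.1 read, given 1 total per library. For 6676 other genes the length was inferred as the smallest that made every value whole. Their wholeness is therefore no check, and their reads may be too few by a common factor. ITGA4, ITGA6, ITGAV, ITGB5 and LAMC1 are among them, with lengths above their longest GENCODE 29 transcript. The 45 duplicate pseudoautosomal Y rows were left out. TMM factors from these reads (0.9402 to 1.0353) scaled the RPKM. Genes with a CPM of at least 0.425 in 2 libraries and 15 reads in total were tested. On log2(RPKM + 0.1), limma 3.58.1 (R 4.3.3) fitted 4 group means over 8 libraries, with trend and robust moderation (4 residual degrees of freedom). Tests were two-sided, with Benjamini-Hochberg adjustment over all genes tested. The scaling and limma steps were also run on simulated reads in which some genes changed in KO with 4-OHT. Those reads had no trait shared by libraries of a clone and no general effect of 4-OHT. That run therefore does not show how the steps behave on these data. Gene positions are from GENCODE 29. The members and lists were chosen with earlier results of these data known; lists were named by up to 4 members of smallest p. Libraries of the same number come from the same clone, so clone is a true block; the deviations of paired libraries correlated at 0.31 in WT and 0.01 in KO. Some genes are not reported here, in the text or the figures.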

Additional observations from a re-analysis of the deposited data

Results flagged for a closer look

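ITGA8 and ITGA3 were the members whose response to 4-OHT differed between KO and WT clones by limma's test of the difference itself. These 2 are 6.7% of the 30 chains, near the 7.44% of all genes that were called. For ITGA8 the KO response exceeded the WT response by 1.04 on the log2 scale (SE 0.13, adjusted p = 0.0071). For ITGA3 it did so by 0.47 (SE 0.10, adjusted p = 0.0367). In both genes the untreated KO libraries were below the untreated WT libraries, with 10.9 and 11.3 RPKM in KO against 22.3 and 18.7 in WT for ITGA8, and 134.3 and 129.5 RPKM in KO against 211.1 and 228.4 in WT for ITGA3. Groups of 2 clones are too small to look for a single library that stands apart.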

How the results depend on the processing

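Alternatives were other scalings (library total only, median-of-ratios size factors), a pseudocount of 1, no filter, limma-voom on recovered reads, clone as a replicate block, only the 4 libraries compared, and each library left out. A tally of single chains took in the differences called in the main fit and only some of the uncalled ones. Calls gained outside it are those of ITGA2, ITGA6 and LAMB1 in the difference of responses. ITGA2 and LAMB4 between genotypes with 4-OHT, and ITGA6 without it, are outside it too. Of the 1229 recomputed values in the tally, 1070 kept their direction and side of the threshold, 125 lost a call, 26 gained one and 8 changed sign. The sign changed at library total only for LAMB1 in KO (-0.03), ITGB1 in WT (-0.02) and LAMC1 in WT (-0.03). With 1 library left out it changed for LAMA1 (-0.38 to 0.10) and LAMB1 (-0.00 to 0.06) in KO, and for ITGA8 (-0.16 to 0.09) and LAMC1 (-0.04 to 0.15) in WT. All of these were uncalled. The counts of chains called in either response to 4-OHT stayed within 1.5 times under every alternative.

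For KO against WT without 4-OHT, 1 chain was higher, which became 2 with a pseudocount of 1, 0 with no filter, 3 with limma-voom, 0 with only 4 libraries and 0 to 2 with 1 library left out. The 5 lower chains became 3 with no filter, 3 with only 4 libraries and 0 to 7 with 1 left out. With 4-OHT, the 2 higher chains became 1 at library total only, 0 with no filter, 4 with limma-voom and 0 to 2 with 1 left out, and the 7 lower ones became 2 with no filter and 1 to 10 with 1 left out. In the difference of responses, the 2 higher chains became 1 with no filter and 1 to 4 with 1 left out. The 0 lower chains became 1 with a pseudocount of 1, 2 with limma-voom and 0 to 1 with 1 left out, and 4 chains had an unadjusted p under 0.05 in that direction. Over all genes, the 1046 called between untreated KO and WT became 245 with no filter, 1738 with limma-voom, 303 with only 4 libraries and 5 to 1849 with 1 left out. The 2375 called with 4-OHT became 994 with no filter and 168 to 2991 with 1 left out, and the 1230 in the difference of responses became 437 and 282 to 2123. With the replicate block, which pairs the libraries of a clone and leaves 2 residual degrees of freedom, LAMB3 was called in the difference of responses (adjusted p = 0.0473), and it changed no other call among the chains. The cause of these changes was not tested. A pseudocount of 1 shrank the fitted changes of low chains by over 1.5 times, to -2.76 for ITGB4 and 0.32 for LAMB4 in KO, and to -1.88 in KO and -1.22 in WT for LAMA3, while limma-voom gave -6.07 for ITGB4 and 3.74 for LAMB4 in KO. With few reads, the values of ITGA2B, ITGAX, ITGB2 and LAMB4 are imprecise.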
